A study of Mus musculus with 4 samples.

Results

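Cells that carried transcripts of Hoxb2 and Hoxb3, neighbouring homeobox genes of the HoxB cluster, are described here in mouse tumours profiled by single-cell RNA sequencing. The tumours were driven by SMO-M2, a Smoothened mutant that signals without ligand. A cell was counted among them when it had 500 or more unique molecular identifiers (UMIs, each standing for 1 captured transcript), 300 or more genes, at most 20% mitochondrial UMIs, and 2 or more UMIs summed over Hoxb2 and Hoxb3. This rule selected 1487 of 31150 cells. They were compared with the 28056 cells that had 0 UMIs of both genes, and 1607 cells with exactly 1 UMI were left between. The UMIs of Hoxb2 and Hoxb3 chose the cells, so these 2 genes are described and not tested. Meis2, Ren1 and Igfbp2, the markers given with the cell group, stayed in the fit across all genes, so counts over genes and lists can include them, but they are described without p-values and their calls support nothing.

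The tumours, labelled MB, came from the genotypes fSMO-M2;hGFAPcre (SG) and fYap1;fSMO-M2;hGFAPcre (YSG), each in males and in females, with 1 library for each of the 4 combinations. The Cre recombinase that all groups carry is driven by the human GFAP promoter, which is active in neural progenitors of several brain regions, and the YSG mice add a floxed allele of Yap1, a Hippo pathway coactivator. The series text calls the YSG animals rescued and places the sampling at end point. The age of the animals, the number of animals behind a library and their strain were not stated in the labels, so genotype and sex cannot be told apart from the animal, the litter or the capture run.

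Hox genes encode transcription factors that are switched on in nested domains along the body axis and give each segment of the hindbrain its identity. In the embryonic hindbrain their expression stops behind rhombomere 1, the segment at the border with the midbrain that forms the cerebellum, whereas paralogues of groups 2 to 4 mark successive segments behind it. Granule neuron progenitors of the cerebellum, from which SHH-driven medulloblastoma arises, come from the rhombic lip of rhombomere 1 and are therefore usually Hox-negative, while the lip of the more posterior segments gives rise to precerebellar and cochlear neurons. Hox proteins bind DNA together with TALE homeodomain partners of the Meis, Pbx and Pknox families.

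The 4 libraries held 7193 to 7882 kept cells in YSG and 7656 to 8419 in SG, with medians of 5872.5 to 7419.5 UMIs per cell. Each pair of libraries shared 10 to 21 barcodes, and no shared barcode belonged to a Hoxb2/Hoxb3 cell in both libraries. Yap1 stood at 2.84 and 3.42 UMIs per 1000000 UMIs (CPM) in the Hoxb2/Hoxb3 cells of SG males and SG females and had 0 UMIs in those of YSG females, and the 0.0668 CPM of the other YSG female cells was also below SG. The selected cells had more UMIs than the cells they were compared with. Their median was 10921 against 5954 UMIs in SG males, 13441 against 7126 in SG females and 10086 against 6242 in YSG females. Depth helps a cell to reach 2 UMIs, so each comparison was repeated with cells of 0 UMIs matched one to one on depth. Cells in the top band of doublet scores made up 10.1% to 11.5% of the selected cells and 4.08% to 4.27% of the cells with 0 UMIs, and the part of doublets in the results was measured only by leaving such cells out.

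The Hoxb2/Hoxb3 cells were present in 3 of the 4 libraries. They made up 375 of 8419 cells in SG males (4.45%, exact 95% binomial interval 4.02% to 4.92%), 425 of 7656 in SG females (5.55%, 5.05% to 6.09%) and 687 of 7193 in YSG females (9.55%, 8.88% to 10.3%). In YSG males there were 0 of 7882, which allows a share of up to 0.0381% when 3 cells are taken as the limit and 0.0468% as the exact upper bound. The YSG male library held 1 UMI of Hoxb3 and 0 of Hoxb2 among 60884286 UMIs, and also 0 of Hoxb4, Hoxa2 and the antisense RNA Hoxb3os. The share in YSG females was 1.72 times that in SG females (1.52 to 1.95) and the share in SG females was 1.25 times that in SG males (1.08 to 1.44). These intervals cover counting error only, and with 1 library for each genotype and sex no difference between groups was tested.

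**Figure D1:**
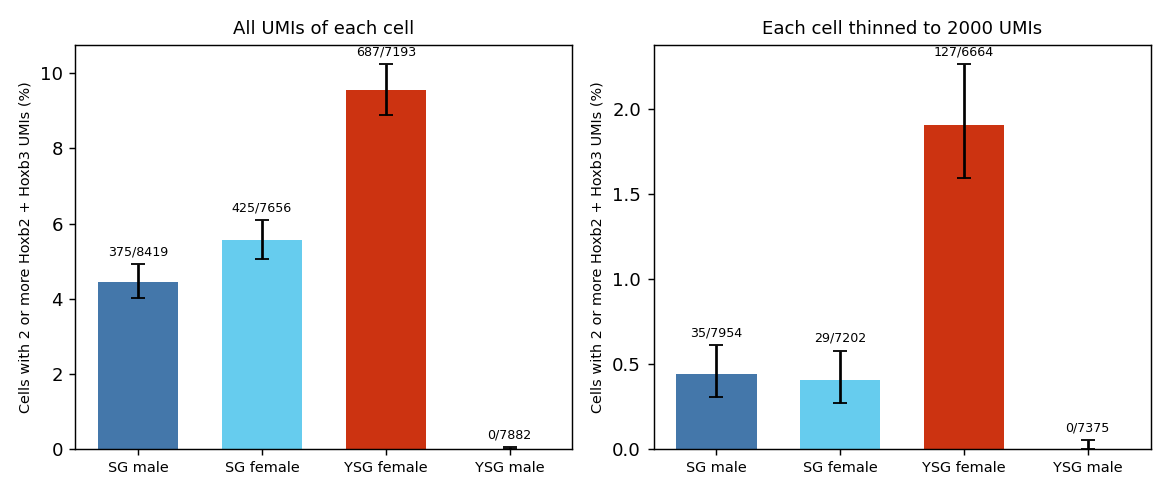
Share of cells with 2 or more Hoxb2 and Hoxb3 UMIs in each library, with all UMIs of each cell (left) and with each cell thinned to 2000 UMIs (right). Bars are shares, lines are exact 95% binomial intervals, and the numbers are selected over all cells. YSG females have the highest bar in both panels and YSG males have 0 cells, while the intervals of the SG libraries overlap after thinning.

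The shares were also taken at an even depth. With each cell thinned to 2000 UMIs, 0.440% of 7954 SG male cells, 0.403% of 7202 SG female cells and 1.91% of 6664 YSG female cells still had 2 or more UMIs. At this even depth the fold between YSG and SG females was 4.73 (3.14 to 7.35) and SG females over SG males stood at 0.915 (0.540 to 1.54), an interval that holds both no difference and the unthinned fold of 1.25. With 1 or more UMIs of the thinned cells, the shares were 3.97%, 3.85% and 6.87% in the same order, and 0% in YSG males. The higher share of SG females over SG males was therefore not detectable at even depth.

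Detection of Hoxb2 and Hoxb3 together was counted in the selected cells. The rule asks for 2 or more UMIs summed over these same genes, so it partly sets how often both are seen. Joint expression beyond that was not tested. Both genes had a UMI in 185 of the 375 SG male cells (49.3%), 196 of the 425 SG female cells (46.1%) and 449 of the 687 YSG female cells (65.4%). Hoxb2 (chromosome 11, 96350525 to 96354012, plus strand, GENCODE M21 on mm10) reached 95.6 CPM in the selected SG male cells, 84.1 in SG females and 168 in YSG females. Hoxb3, at 96323326 to 96347930 on the same strand, reached 67.9, 46.6 and 150 CPM. Each gene was thus highest in YSG females and lowest in SG females, a description of values that the rule itself used. The highest sum of both genes in 1 cell was 9 UMIs in SG males, 10 in SG females and 21 in YSG females, and the medians were 2, 2 and 3. Raising the rule to 3 or more UMIs kept 1.57%, 2.39% and 6.46% of all cells.

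By markers of granule cells and of the other cell types, most of the selected cells lay in the granule lineage. Of them, 97.6% in SG males, 96.5% in SG females and 98.5% in YSG females lay in clusters named granule progenitor-like or differentiating granule neuron-like, against 94.3%, 94.2% and 92.5% of the cells with 0 UMIs. The summed level of 10 granule progenitor markers was 2102, 2205 and 2268 CPM in the selected cells and 1706, 1817 and 2018 CPM in the cells with 0 UMIs, and all 10 markers were detected. The 10 markers of differentiating granule neurons summed to 1972, 1961 and 2651 CPM against 1583, 1452 and 3343 CPM. These were thus higher in the selected cells of SG and lower in those of YSG females. The EYFP feature of the reference stood at 32.9, 42.1 and 29.99 CPM in the selected cells and at 35.2, 42.7 and 28.4 CPM in the others. Immune cells gave no selected cell in any library, and 0 of 16, 1 of 9 and 2 of 46 of them had a Hoxb2 or Hoxb3 UMI, at medians of 1428, 1047 and 1679 UMIs per cell. Glial cells, that is astroglia, oligodendrocytes and their precursors, had a UMI in 8.56% of 257 cells in SG males, 13.0% of 216 in SG females and 7.78% of 90 in YSG females, at medians of 6734, 9127 and 6706 UMIs. The granule lineage had a UMI in 12.3%, 13.3% and 15.8% of cells at medians of 6269, 7538 and 6904 UMIs. Selected cells were 14 of the 216 glial cells of SG females (6.48%) and 5.67% of the granule lineage there. In SG females the glial and granule shares with a UMI thus lie within each other's counting error (8.79% to 18.2% and 12.5% to 14.1%), and the part of RNA outside cells in single UMIs was not tested. The selected cells also differed from the others in a further Hox gene that the rule did not use. At an even depth of 2000 UMIs, Hoxb4 was detected in 4.29% of selected SG male cells and 0.259% of those with 0 UMIs, in 0.943% and 0.193% in SG females, and in 4.09% and 0.250% in YSG females.

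The position of the cells among the clusters differed between the YSG female library and both SG libraries. Many clusters came mostly from 1 genotype, so positions differ in part with the makeup of the libraries. Cluster 2 counted 1462 and 1730 cells in SG males and females, and 33 and 14 in YSG females and males. Cluster 3 counted 99 and 65, and 1313 and 1655, in the same order. In SG most of the selected cells lay in several granule-lineage clusters. Cluster 2, led by Pdlim3, Nptx1 and Runx1, held 103 selected cells of 1462 in SG males (7.05%) and 141 of 1730 in SG females (8.15%), and cluster 5, led by Pnoc, Robo3, Crabp1 and Cntn2, held 74 of 1130 and 71 of 850. Cluster 2 was deeper, with medians of 15046 and 18918.5 UMIs per cell against 5562.5 and 7348.5 in cluster 5. The selected cells of cluster 2 had 50.8 and 46.2 CPM of Hoxb2 against 110.3 and 114 CPM. Hoxb2 chose the cells, and a fixed cut of 2 UMIs asks for fewer CPM in a deeper cell. The lower level in cluster 2 is therefore partly set by the rule. Outside the granule lineage, the oligodendrocyte precursor cluster 20 held 8 selected cells of 34 in SG females (23.5%, 10.7% to 41.2%) and 1 of 28 in SG males. In YSG females, 125 of 219 cells of cluster 5 were selected (57.1%, 50.2% to 63.7%). Cluster 3 held 148 selected cells of 1313 there (11.3%), which is 21.5% of all selected cells of that library. Cluster 16 held 232 of its 419 YSG female cells (55.4%, 50.5% to 60.2%) and 33.8% of all selected cells of that library. Its leading genes were Ren1, Hoxb2, Hoxb3, Dach2, Hoxb3os, Meis2 and Epha3, although Hox genes, Meis2, Ren1 and Igfbp2 had been left out of the genes used for clustering. It counted 4 cells in SG males, 24 in SG females and 4 in YSG males, so it is nearly all from 1 library. Cluster 0, which holds 1326 YSG female cells and is led by Wnt4 and Mndal, had 24 selected cells (1.81%), and cluster 10, led by Kcna1 and Unc5c, had 3 of 835 (0.359%). Without cluster 16 the share in YSG females was 6.72% and its fold over SG females 1.23 (1.07 to 1.41).

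**Figure D2:**
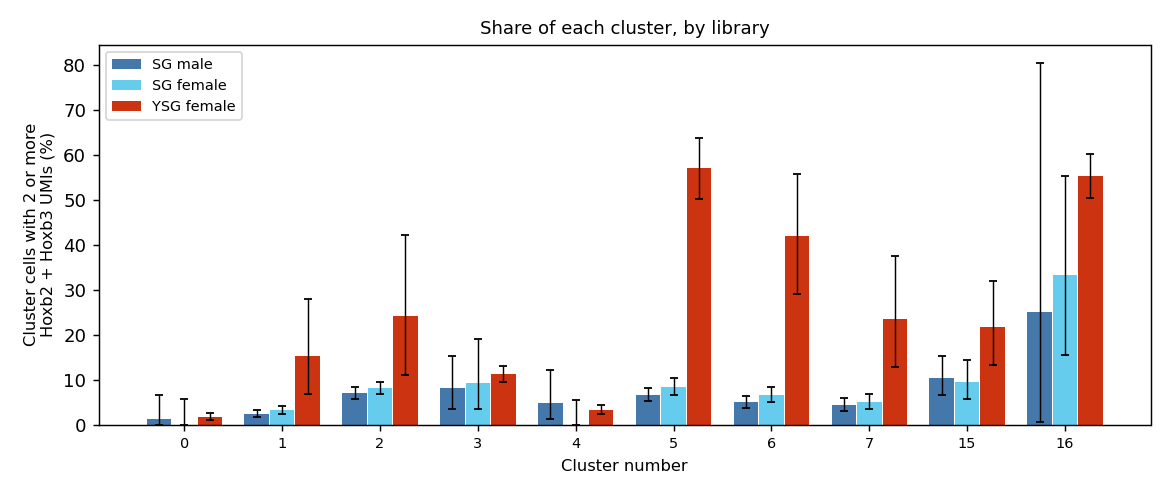
Percent of the cells of each cluster with 2 or more Hoxb2 and Hoxb3 UMIs, for clusters with at least 20 such cells in 1 library, with exact 95% binomial intervals. In YSG females clusters 5, 6 and 16 reach 42.1% to 57.1%, while the SG libraries stay between 2.32% and 10.3% in clusters 1, 2, 5, 6, 7 and 15, and wide bars in cluster 16 rest on 4 and 24 cells.

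Other Hox genes were tested across the whole transcriptome. For each of the 3 libraries with selected cells, UMIs were summed over the selected cells and over the cells with 0 UMIs, and edgeR's quasi-likelihood test compared the 2 sums within libraries, over 14384 genes other than Hoxb2 and Hoxb3. At an adjusted p (Benjamini-Hochberg) under 0.05, 59 genes, Ren1 among them, were higher in the selected cells (0.410% of genes tested) and 23 were lower (0.160%). With 3 libraries from 2 genotypes as the only replication, p-values measure how alike the libraries are. A fit without SG females called 9 higher and 2 lower genes, 10 of them among the 82, a fit without SG males called 22 and 5, 22 of them among the 82, and a fit without YSG females called 915 and 966, which hold all 82.

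Of 18 listed Hox genes 2 passed the filter on low counts, a filter that genes seen mainly in the selected cells pass through those cells, and both were higher. Hoxb4, the next gene of the cluster (chromosome 11, 96318267 to 96321638), stood at 12.4 CPM in selected cells and 1.47 CPM in cells with 0 UMIs in SG males, 8.43 and 1.08 in SG females, and 18.7 and 1.27 in YSG females. Its log2 fold change was 3.30 ± 0.23 (3 libraries, edgeR adjusted p = 0.00741). Here and below, the value after ± is the change divided by the square root of the edgeR F statistic. It is not the standard error of the folds of the 3 libraries. The adjusted p of Hoxb4 stayed under 0.05 without any 1 of the libraries (0.0149 without SG females, 0.0111 without SG males). Hoxa2, the group 2 paralogue on chromosome 6 (52162417 to 52164831, minus strand), stood at 8.85 and 1.80 CPM, 10.5 and 2.20 CPM, and 24.9 and 1.31 CPM in the same order. Its log2 fold change was 2.93 ± 0.41 with an adjusted p of 0.0450 in edgeR, which became 0.0826 without SG females and 0.0762 without cluster 16. The values of the selected cells lie above those of the cells with 0 UMIs in every library for both genes. Hoxb3os (chromosome 11, 96343072 to 96354691, minus strand) had a log2 fold change of 2.63 ± 0.32. It overlaps Hoxb2 and Hoxb3 on the opposite strand, and since the strand setting of the counting was not stated in the labels its UMIs cannot be told apart from theirs. Other Hox genes were nearly silent. In the selected cells Hoxb5 and Hoxa5, which mark more posterior levels, had 1 UMI each and Hoxb1 had 2, all in YSG females. Hoxaas2, an antisense RNA of the HoxA cluster, had 10, 14 and 76 UMIs in the selected cells of SG males, SG females and YSG females, and 20, 27 and 18 in the far more numerous cells with 0 UMIs.

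Meis2, a TALE partner of Hox proteins, stood at 31.2 CPM in selected SG male cells and 9.49 CPM in those with 0 UMIs, at 35.5 and 10.0 in SG females, and at 91.2 and 5.32 in YSG females. The fold between the classes was thus 3.29 (2.77 to 3.89), 3.55 (3.09 to 4.06) and 17.2 (14.8 to 19.9), and in YSG females the selected cells were higher and the others lower than in SG. A cell with few Hoxb2 and Hoxb3 transcripts can show 0 UMIs of both. Cells with 0 UMIs had 9.77 CPM of Hoxb3os in SG males, 7.87 in SG females and 5.23 in YSG females. The part of such missed cells in the levels and folds of Meis2 was not tested. Of the 9 TALE genes in the fit, Meis2 included, 2 others were called, both higher, among them Meis1, and the median log2 fold change of the list was 0.09 against -0.0025 over all genes tested. Meis1, which is expressed throughout granule progenitors, stood at 311 and 252 CPM in SG males, 327 and 252 in SG females, and 412 and 349 in YSG females (log2 fold change 0.30 ± 0.042, edgeR adjusted p = 0.0467). This difference is small, and it did not pass without SG females (0.335) or without SG males (0.355). Beside Meis2, 6 TALE genes did not pass, with log2 fold changes from -0.12 to 0.15.

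Ren1, which encodes renin, the protease that opens the angiotensin cascade and is best known from the kidney, showed the largest difference of level between libraries among the given markers. In the selected cells it stood at 10.2 CPM in SG males, 11.4 in SG females and 487 in YSG females, and in cells with 0 UMIs at 1.28, 1.46 and 29.8 CPM. In YSG males, all cells together, it stood at 0.279 CPM. At an even depth of 2000 UMIs, a Ren1 UMI was found in 3.22% of selected SG male cells, 4.25% in SG females and 60.1% in YSG females (56.4% to 63.8%), against 0.316%, 0.273% and 3.68% of the cells with 0 UMIs. Unthinned, the selected cells gave 11.3%, 14.6% and 94.7%. Some mouse strains carry a near-identical gene, Ren2, next to Ren1, and since the strain is unknown and the feature table has no Ren2, UMIs under Ren1 may include it. Beside Ren1, 5 genes of the renin and angiotensin list were tested and 0 were called, and the substrate gene Agt had 1.67, 1.59 and 0.115 CPM in the selected cells.

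The proximal promoter of Ren1 is known to hold a binding element for Hox and Pbx proteins, so the promoter windows of RefSeq (GRCm38.p6, 250 bases before to 50 after each start) were searched on both strands for TGATNNAT, an octamer bound by Hox and Pbx. Ren1 and Hoxa2 were the genes with a match among 6 examined (Hoxb4, Hoxa2, Hoxb3os, Meis2, Ren1 and Igfbp2, with 7 windows). The table has no window for Hoxb2 or Hoxb3. The matched stretches are shown because these genes move with Hoxb2 and Hoxb3. Each is printed 5′ to 3′ along its gene with the matches in capitals, at chr1:133350610-133350639 on the plus strand and chr6:52164924-52164953 on the minus strand.
Ren1: aATAAATCAaagcagagcctgTGATACATg
Hoxa2: gacttttttggATCAATCAaacagacagtg
The first base of each match lay at -63 and -43 from the start of Ren1 and at -111 from that of Hoxa2, and the matches at -63 and -111 read the octamer on the opposite strand. The octamer occurred in 4.15% of 13867 windows of genes tested, in 8.85% of all 32851 windows and in 8 of 63 windows of genes called higher (12.7%). A match describes letters and not a bound site.

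Igfbp2, a secreted binding protein of insulin-like growth factors, stood at 149 CPM in selected cells and 11.4 CPM in cells with 0 UMIs in YSG females, at 15.9 and 13.9 in SG males, and at 20.9 and 14.7 in SG females. Against all cells with 0 UMIs the fold was 1.14 in SG males, with an interval from 0.912 to 1.41 that includes no difference, 1.43 (1.21 to 1.67) in SG females and 13.1 (11.8 to 14.6) in YSG females. The cells with 0 UMIs include glia and other cells outside the granule lineage, and within granule-lineage clusters the picture changed in SG. There Igfbp2 stood at 13.4 and 4.18 CPM in SG males, 15.4 and 4.41 in SG females, and 148 and 10.7 in YSG females, folds of 3.21 (2.45 to 4.17), 3.497 (2.81 to 4.33) and 13.8 (12.4 to 15.4). The selected cells were thus above the other granule-lineage cells in all 3 libraries, and the fold was largest in YSG females. The folds of Meis2 and Ren1 hardly depended on this choice, with 3.28 and 7.71 in SG males, 3.48 and 7.88 in SG females, and 17.6 and 16.5 in YSG females within the granule lineage. Of the 15 genes of the insulin-like growth factor list in the fit, Igfbp2 included, Igfbp5, another binding protein, was called higher (24.2 and 15.5, 25.2 and 15.1, and 63.2 and 45.2 CPM, edgeR adjusted p = 0.0450), and against depth-matched cells its log2 fold change went from 0.61 to 0.82 while the adjusted p rose to 0.104.

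Cells on both sides of the threshold of 2 UMIs were set side by side. Just outside it, cells with 1 UMI had 9.44 CPM of Ren1 in SG males, 7.24 in SG females and 311 in YSG females. Just inside it, cells with 2 UMIs had 10.4, 8.63 and 403 CPM. Meis2 went from 29.6 to 31.0 CPM in SG males, 26.6 to 33.9 in SG females and 44.1 to 66.3 in YSG females. Igfbp2 went from 15.8 to 13.5 CPM in SG males, 11.3 to 20.2 in SG females and 79.3 to 112 in YSG females. Cells with 5 or more UMIs had 129 CPM of Meis2, 592 of Ren1, 191 of Igfbp2 and 23.1 of Hoxb4 in YSG females. For Ren1 and Meis2 the cells with 1 UMI were thus closer to those with 2 than to those with 0 UMIs, which had 1.28, 1.46 and 29.8 CPM of Ren1.

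**Figure D3:**
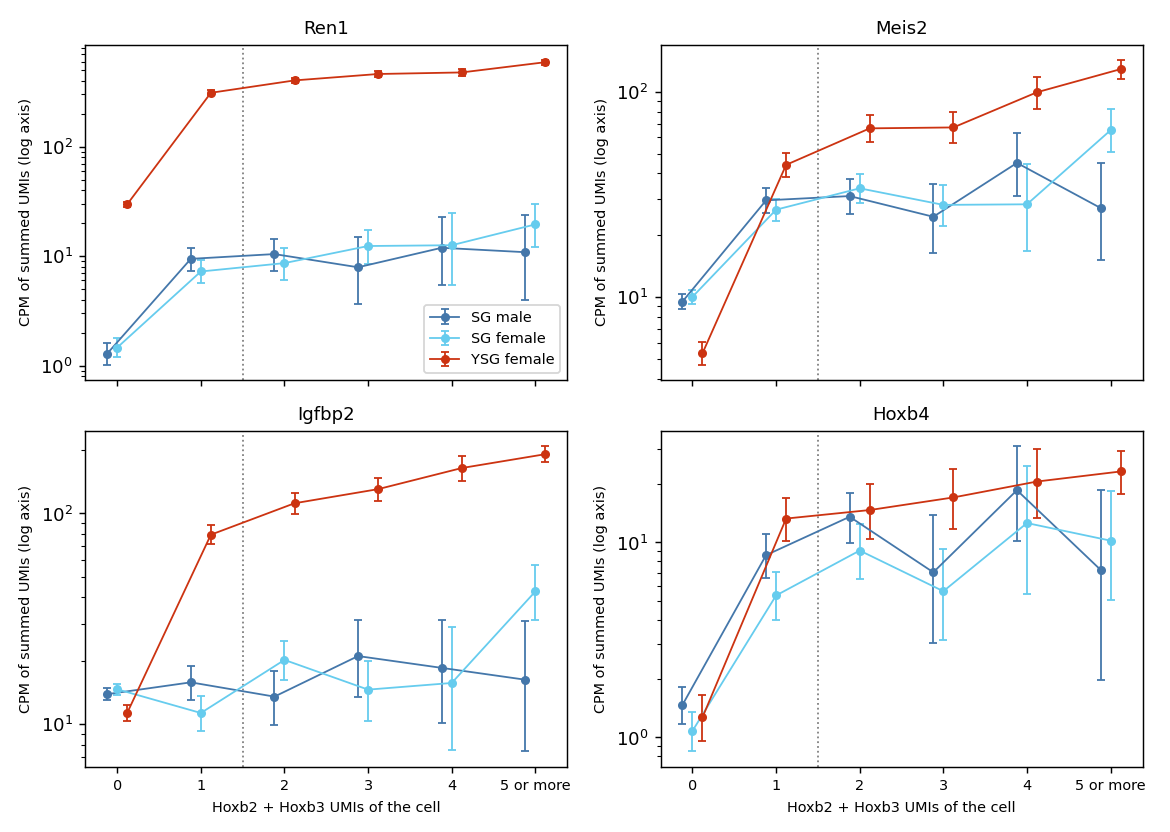
CPM of summed UMIs (log axis) of Ren1, Meis2, Igfbp2 and Hoxb4 in cells grouped by their sum of Hoxb2 and Hoxb3 UMIs, by library. Error bars are exact 95% binomial intervals, and the selection threshold is dotted. Ren1 in YSG females lies above both SG libraries in every bin, and Igfbp2 separates from SG once a YSG female cell has 1 UMI.

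Within YSG females the markers differed from cluster to cluster. Ren1 was 661 CPM in the 232 selected cells of cluster 16, 574 in the 125 of cluster 5, 371 in the 148 of cluster 3, which is led by cell-cycle genes, and 353 in the 44 of cluster 4. Igfbp2 was 529 CPM in cluster 5 and 114 in cluster 16, and Crabp1, a retinoic acid binding protein, was 453 CPM in cluster 5 and 26.7 in cluster 16. In cluster 16 the 96 cells with 0 UMIs of Hoxb2 and Hoxb3 still had 388 CPM of Ren1, 64.7 of Meis2 and 23.3 of Hoxa2, and their median depth was 7711.5 UMIs against 8446.5 in the selected cells. In the SG libraries Ren1 stood at 41.3 CPM in the 58 selected SG male cells and 31.4 CPM in the 63 selected SG female cells of cluster 6, at 18.0 and 30.7 CPM in cluster 5 and at 5.01 and 6.30 CPM in cluster 2, values that rest on 14 to 33 UMIs each. Crabp1 and other genes outside the Hox group took part in the clustering, so their differences between clusters are a description.

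Genes of hindbrain patterning and of the rhombic lip were examined next. The nuclear receptors Nr2f1 and Nr2f2 (COUP-TFI and COUP-TFII), regulators of regional identity, were the 2 of 12 hindbrain segment genes called, both higher. Over all genes tested 0.410% were called higher and 0.160% lower. Against depth-matched cells of the granule lineage 1 of 11 hindbrain segment genes was called, Nr2f2 (edgeR adjusted p = 0.0020), and Nr2f1 was not. Nr2f2 stood at 99.5 CPM in selected cells and 48.5 in cells with 0 UMIs in SG males, 82.4 and 39.2 in SG females, and 81.1 and 35.7 in YSG females (log2 fold change 1.09 ± 0.062, edgeR adjusted p = 0.00472). Irx3 and Irx5, Iroquois homeobox genes, had log2 fold changes of -0.72 and -0.23 and did not pass (edgeR adjusted p = 0.676 and 0.422). Of 15 rhombic lip genes Atoh1, the bHLH factor that defines this lip and its granule progenitors, was called, with 43.7 and 24.9, 42.5 and 26.5, and 53.8 and 27.4 CPM (log2 fold change 0.82 ± 0.086, edgeR adjusted p = 0.0273). The call was lost without SG females (0.0826) or SG males (0.0869). Robo3, a receptor of commissural and precerebellar axons, stood at 26.04 and 10.2, 38.8 and 12.1, and 57.3 and 2.23 CPM, and did not pass with its uneven folds (log2 fold change 2.44 ± 0.60, adjusted p = 0.197), but passed against depth-matched cells (0.0194).

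Of 9 genes of the isthmus and rhombomere 1 that were tested, 1 was called, with changes from -1.35 to 0.90 on the log2 scale and a median of 0.05. The called gene was Otx2, a homeobox factor of the forebrain and midbrain that is also expressed in posterior cerebellar granule progenitors. It stood at 76.0 and 42.0 CPM in SG males, 73.4 and 39.4 in SG females, and 43.3 and 22.8 in YSG females (log2 fold change 0.88 ± 0.063, edgeR adjusted p = 0.00741, and 0.0615 without SG females). En1 and En2, the engrailed genes of rhombomere 1 and the midbrain, had the lowest values of the list. En2 stood at 19.9 CPM in selected cells and 44.8 in the others in SG males, at 23.7 and 38.2 in SG females, and at 14.9 and 50.9 in YSG females. The selected cells lay below the others in all 3 libraries, but the change of -1.20 ± 0.19 on the log2 scale missed the threshold (edgeR adjusted p = 0.0625) and passed it against depth-matched cells (0.0433). En1 changed by -1.35 ± 0.32 (adjusted p = 0.187). Fgf8, the signal of the isthmus, had 3.17 and 1.92, 3.30 and 2.72, and 6.32 and 2.07 CPM and did not pass (adjusted p = 0.299).

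Retinoic acid is a posterior signal that induces Hox genes in the hindbrain. Of 14 genes of this pathway, 0 were called in edgeR at an adjusted p under 0.05, and the median log2 fold change was 0.25. Crabp1 stood at 92.2 CPM in selected YSG female cells and 2.74 in those with 0 UMIs, but at 9.01 and 7.44 in SG males and 6.95 and 6.39 in SG females (adjusted p = 0.487). Rara, a receptor, had 18.2 and 2.63 CPM in YSG females, 8.51 and 6.79 in SG males, and 10.0 and 8.47 in SG females (adjusted p = 0.415). Aldh1a2, which makes retinoic acid, was at 3.34, 2.16 and 0.345 CPM in the selected cells. The separation by Crabp1 and Rara was thus a feature of the YSG female library.

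Other genes with large increases are given next. Chrm3, the M3 muscarinic receptor, stood at 13.5 and 5.67 CPM in SG males, 21.3 and 6.25 in SG females, and 34.4 and 6.30 in YSG females (log2 fold change 1.85 ± 0.22, edgeR adjusted p = 0.0361). Kcna2, a voltage-gated potassium channel, rose by 1.62 ± 0.22 and Epha3, an ephrin receptor of axon guidance, by 1.55 ± 0.21. Epha3 reached 53.4, 47.0 and 131 CPM in the selected cells against 21.1, 22.4 and 28.4 CPM. Pnoc, the precursor of the peptide nociceptin, rose by 0.997 ± 0.13 and Nxph4, a neurexophilin, by 1.04 ± 0.096. Tspan18, a tetraspanin, rose by 0.98 ± 0.14. These 5 genes had adjusted p from 0.0183 to 0.0450.

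Among nuclear and metabolic genes, Mab21l2, a developmental regulator, stood at 234 and 68.8 CPM in SG males, 229 and 73.5 in SG females, and 414 and 223 in YSG females (1.42 ± 0.15 on the log2 scale, edgeR adjusted p = 0.0286). Its fold was smaller in YSG females than in either SG library, a difference that was not tested. Pgm1, a phosphoglucomutase of glycogen and glucose metabolism, rose by 1.47 ± 0.086, from 9.36, 8.31 and 25.5 CPM to 24.5, 24.8 and 70.6 CPM. Lrba, a BEACH protein of vesicle traffic, rose by 1.05 ± 0.059, Btbd11 by 1.31 ± 0.15 and Mroh2a by 1.29 ± 0.088. Pgm1, Lrba, Btbd11, Mroh2a, Nr2f2 and Hoxb4 kept an adjusted p under 0.05 when any 1 library was left out. Against depth-matched cells 82 genes were higher and 31 lower, and 60 of the 82 genes called against all cells with 0 UMIs were called there as well.

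**Figure D4:**
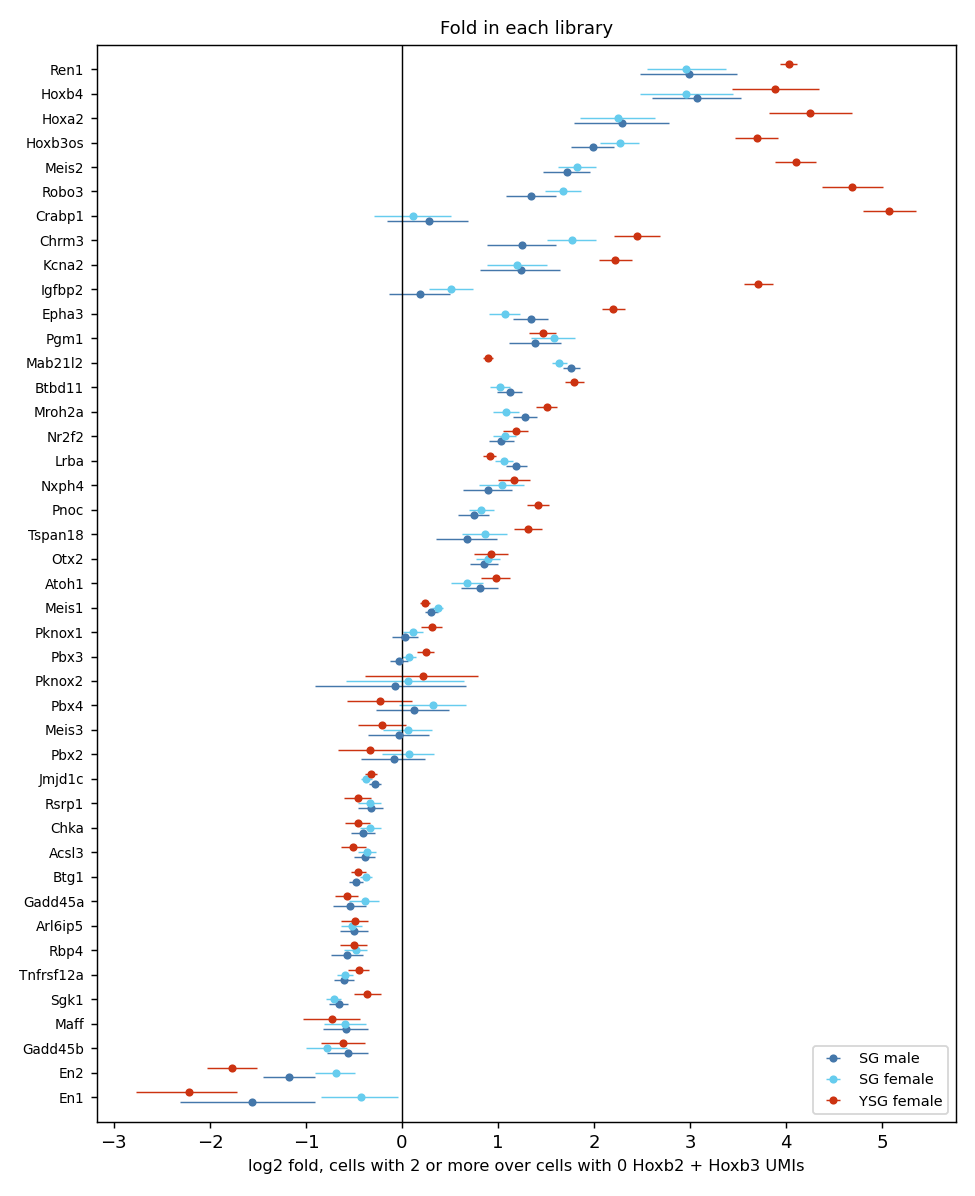
log2 fold of the CPM of selected cells over cells with 0 UMIs in each library, with exact 95% intervals for counting error, for the given markers, Hox genes, TALE genes, the called genes with the largest changes and 6 patterning genes. Hoxa2, Hoxb4, Meis1, Nr2f2, Otx2 and Atoh1 lie above 0 in all 3 libraries, whereas Crabp1 and Igfbp2 leave 0 mainly in YSG females.

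The 12 lower genes named by size and level had log2 changes from -0.66 to -0.33. Gadd45b, a stress-induced growth arrest gene, stood at 32.9 CPM in selected cells and 48.7 in cells with 0 UMIs in SG males, 22.3 and 38.4 in SG females, and 20.8 and 31.7 in YSG females (edgeR adjusted p = 0.0375). Sgk1, a kinase induced by steroids and stress, stood at 155 and 245, 161 and 264, and 56.5 and 72.5 CPM (adjusted p = 0.0375). Tnfrsf12a, the TWEAK receptor, fell by 0.56 ± 0.052 and Rbp4, the carrier of retinol, fell by 0.52 ± 0.055. Against depth-matched cells Gadd45b (0.0679), Maff (0.104), Btg1 (0.0555), Chka (0.0836) and Rsrp1 (0.317) lost the call. The log2 changes of Gadd45b, Maff and Chka stayed close (-0.62, -0.54 and -0.37, from -0.66, -0.64 and -0.40). Those of Btg1 and Rsrp1 went from -0.44 to -0.28 and from -0.38 to -0.17. With depth-matched cells of the granule lineage alone, the change of Gadd45b was -0.34 (edgeR adjusted p = 0.299). Sgk1, Tnfrsf12a, Rbp4, Arl6ip5, Gadd45a, Acsl3 and Jmjd1c kept the call against depth-matched cells. Gadd45a missed it when these were limited to the granule lineage (0.0527). None of these genes kept the call without SG females or without SG males (edgeR adjusted p from 0.0869 to 0.259), though each kept its direction.

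Genes of other cell types were also among the 23 lower ones. The microglial genes Lyz2, Tyrobp, C1qa and C1qb and the oligodendrocyte genes Enpp6 and Cnp, named here after their values were seen, were called lower. The 9 microglial markers summed to 0.167, 0.683 and 1.84 CPM in the selected cells of SG males, SG females and YSG females and to 5.57, 6.34 and 34.2 CPM in the cells with 0 UMIs, and C1qa, C1qb and Lyz2 were at 0 in the selected cells of both SG libraries. The 8 oligodendrocyte markers summed to 50.6, 29.8 and 34.9 CPM against 82.2, 79.0 and 113 CPM. The 8 astroglial markers summed to 466, 378 and 232 CPM against 582, 581 and 237 CPM. Not every such list was lower in each library. The 7 oligodendrocyte precursor markers summed to 51.7, 68.4 and 58.5 CPM against 60.1, 51.5 and 109 CPM. The 7 endothelial markers summed to 32.9, 29.8 and 29.0 CPM against 27.4, 34.9 and 18.4 CPM. Most cells of these types had 0 UMIs of Hoxb2 and Hoxb3, and with granule-lineage clusters alone 55 genes were higher and 15 lower.

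Lists for the programmes of these tumours showed few calls. Of 18 SHH pathway genes 0 were called, with a median log2 fold change of 0.22. Ccnd1, a cyclin induced by SHH, stood at 461 and 318 CPM in SG males, 528 and 385 in SG females, and 526 and 273 in YSG females, with an adjusted p of 0.0568 in edgeR. Of 30 proliferation genes 0 were called, and their median was 0.10 against all cells with 0 UMIs and -0.17 against depth-matched cells of the granule lineage. The second median differs from the first in both the depth and the cell types compared. Of 21 genes of granule neuron differentiation Tubb3, a neuronal tubulin, was called higher (402 and 301, 394 and 269, and 650 and 524 CPM, edgeR adjusted p = 0.0375), with a list median of 0.08. Of 26 YAP and TAZ targets Crim1 was higher and Gadd45a lower, with a median of 0.06. The lists for mesenchymal and caveolar genes (19 tested, median -0.12), extracellular matrix (21, 0.07), MHC class I (12, -0.12), Wnt and BMP signalling (23, 0.03), neural stem and glial progenitors (17, -0.03) and immediate early and dissociation stress genes (20, -0.30) had 0 calls. Over all genes tested the median was -0.0025, with 0.410% called higher and 0.160% lower.

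The selected cells of YSG females were then set beside those of SG females, with folds and counting intervals and without a test, since each is 1 library. Of 11103 genes with at least 50 UMIs over the selected cells of both libraries, 341 were above 2-fold (3.07%) and 216 below 1/2-fold (1.95%). Among cells with 0 UMIs the same libraries gave 465 and 395 genes. Of the genes above 2-fold, 167 were shared, 49.0% of those in selected cells and 35.9% of those in the others. Of the genes below, 141 were shared, 65.3% and 35.7%. A large part of the contrast was thus also present in cells without Hoxb2 and Hoxb3.

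Ren1 was 42.8 times as high in selected YSG female as in selected SG female cells (35.1 to 52.7) and 20.4 times in cells with 0 UMIs. Mndal, a nuclear protein gene induced by interferon, had 841 UMIs against 0 in the selected cells and is the clearest case of a contrast shared with the other cells, where it stood at 90.5 and 0.0292 CPM. Igfbp2 was 7.10 times as high (6.08 to 8.34) in the selected cells and 0.774 times in the others. Crabp1 was 13.3 times (10.2 to 17.5) and 0.428 times, Meis2 2.57 times (2.25 to 2.94) and 0.531 times, and Hoxa2 2.38 times (1.86 to 3.07) and 0.596 times. These 4 genes were higher in YSG females in selected cells and lower in YSG females in cells with 0 UMIs. For Igfbp2 the second part did not hold within granule-lineage clusters. There the cells with 0 UMIs had 10.7 CPM in YSG females and 4.41 CPM in SG females. Which cells outside this lineage carry the difference was not tested. The part of cells whose Hoxb2 and Hoxb3 transcripts were missed in the ratios of cells with 0 UMIs was not tested either. Wwtr1, which encodes TAZ, the paralogue of YAP, was at 0.891 times (0.718 to 1.10) in selected cells and 0.234 times in the others, so its lower level in YSG was not seen in the selected cells. Smo stood at 0.919 times (0.813 to 1.04).

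Genes lower in selected YSG female cells included several that mark SG tumour cells. Pdlim3, an actin-linked LIM protein, had 12 UMIs against 1142, a ratio of 0.0106 (0.00546 to 0.0186), and 0.0122 in cells with 0 UMIs. The homeobox gene Shox2 had 0 UMIs against 54. Islr2, a neuronal adhesion protein, had 26 against 375. In these genes the selected cells followed the library they came from. Otx1, a homeobox factor of the forebrain and midbrain, was 5.08 times as high (4.12 to 6.33) in selected cells and 7.47 times in the others.

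**Figure D5:**
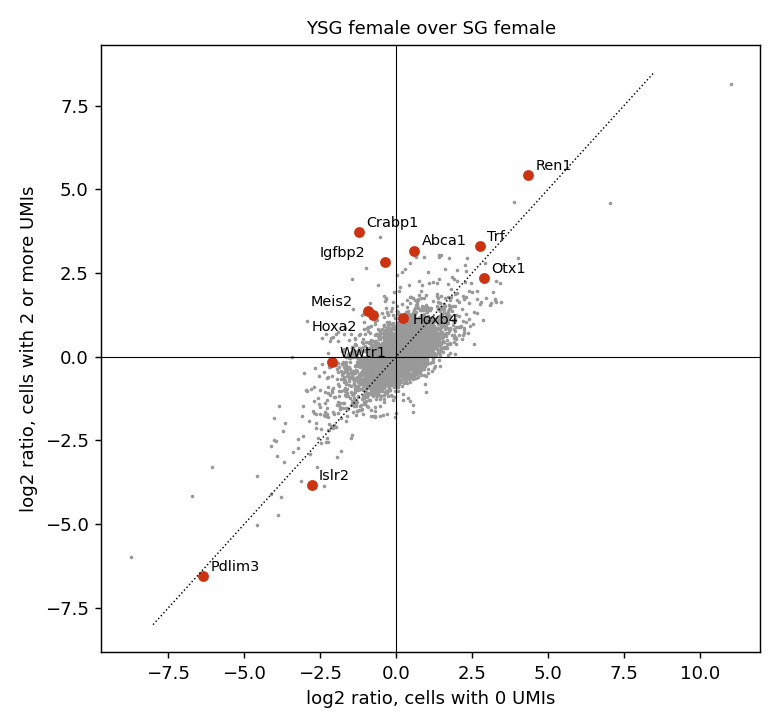
log2 ratio of YSG female over SG female CPM in selected cells (vertical) against the same ratio in cells with 0 UMIs (horizontal) for 11103 genes, with counts under 3 UMIs set to 3. Crabp1, Igfbp2, Meis2 and Hoxa2 lie above 0 on the vertical and below 0 on the horizontal axis, and Ren1 and Pdlim3 lie far out on both.

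The SG libraries differed little in their selected cells. Of 10658 genes, 40 were above 2-fold in SG females over SG males (0.375%) and 13 below 1/2-fold (0.122%). Mid1, an X-linked ubiquitin ligase, was 6.35 times as high (4.49 to 9.22) and 5.92 times in cells with 0 UMIs, and the histone gene Hist1h2ap 5.98 times and 5.67 times. Ren1 was at 1.12 times (0.805 to 1.56), Meis2 at 1.14 times (0.946 to 1.37) and Hoxa2 at 1.18 times (0.835 to 1.69), intervals that include no difference. Hoxb4 was at 0.682 times (0.487 to 0.954).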

How the data were processed

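Single-cell 3′ libraries (10x V3 chemistry) from 4 tumour samples were analysed. Per the file headers the authors' matrices were made with Cell Ranger 5.0.1, and per the submitters' processing notes with mm10. The deposited values are raw UMI counts over 32286 features, 7289 to 8505 barcodes and 58478914 to 86906706 UMIs per library. Cells with 500 UMIs, 300 genes and at most 20% mitochondrial UMIs were kept. The members and the gene lists were chosen with earlier results of these data known.

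Cells were clustered with scanpy 1.11.5 and leidenalg 0.10.2 (2000 variable genes, 30 components, 15 neighbours, resolution 1, 26 clusters) without Hox genes, Meis2, Ren1, Igfbp2, sex-linked, mitochondrial and haemoglobin genes, Yap1 and EYFP, and named from marker lists. 4 cells lay in groups under 10 cells. Scrublet called 0% doublets, which is no working call, so the top 6% of scores were left out as an alternative. UMIs were summed per library and class and tested with edgeR 4.0.16 (R 4.3.3, quasi-likelihood, TMM normalisation, filterByExpr, library and class as terms, Benjamini-Hochberg adjustment, threshold 0.05), with DESeq2 1.42.0 as an alternative. Nothing says that libraries pool several animals, so p-values measure only the spread between 3 libraries. CPM are UMIs per 1000000 UMIs of the summed class. Shares carry exact (Clopper-Pearson) and folds exact conditional binomial 95% intervals for counting error only. A share of 0 was limited with 3 cells, and counts under 3 UMIs were set to 3 in ratios. The scripts were tested on simulated data.

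Named genes were the given markers, all tested Hox and TALE genes, up to 14 called genes per direction with the largest change (at least 20 CPM in either class, same sign in each library and against depth-matched cells, no predicted, mitochondrial or haemoglobin genes), the 2 highest and 2 lowest of each list, the 8 largest folds per direction between libraries (at least 50 UMIs), and Yap1, Wwtr1, Smo and EYFP. 12 lower genes met the rule. Values within the granule lineage for Igfbp2, Meis2 and Ren1 were added after the data were seen. Some results that the rule covers are not reported here.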

Additional observations from a re-analysis of the deposited data

Results flagged for a closer look

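Sfrp1, a secreted inhibitor of Wnt signalling, was higher than in the other cells in both SG libraries and lower in YSG females, the only YSG library with selected cells. Its level in the selected cells over that in cells with 0 UMIs was 1.09-fold in SG males, 1.13-fold in SG females and 0.766-fold in YSG females. This difference between libraries was not tested.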

How the results depend on the processing

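The shares of Hoxb2/Hoxb3 cells depended on the UMI threshold and on depth. With 1 or more UMIs they were 11.9% in SG males, 13.0% in SG females and 15.2% in YSG females, and with 3 or more 1.57%, 2.39% and 6.46%. Thinned to 2000 UMIs per cell they were 0.440%, 0.403% and 1.91% with 2 or more UMIs, and 3.97%, 3.85% and 6.87% with 1 or more. YSG females stayed above SG females at 1.16-fold, 2.70-fold and 4.73-fold with 1 or more, 3 or more and thinned UMIs, and at 1.23-fold without cluster 16, which took the YSG female share to 6.72%. YSG females stayed above SG males at 1.27-fold, 4.12-fold and 4.33-fold in that order, at 1.51-fold without cluster 16 and at 1.73-fold with 1 or more thinned UMIs. SG females over SG males went to 1.52-fold with 3 or more UMIs and turned to 0.915-fold and 0.968-fold when thinned. The thinned setting with 1 or more UMIs and the one without cluster 16 were chosen after seeing the data.

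Counts of genes called higher and lower were 122 and 71 with DESeq2 and 97 and 115 with no filter but 10 UMIs. Lower genes numbered 15 in granule-lineage clusters alone and 37 after thinning, which moved the median log2 fold change of all genes to -0.14. Of the 82 called genes 27 were called after thinning and 60 against depth-matched cells. Leaving out 1 library gave 9 to 915 higher and 2 to 966 lower genes, and the cause was not tested. The test sets the classes against each other within a library, so the library is the block, and with no library term 0 and 0 genes were called in edgeR (562 at an unadjusted p under 0.05). No paired analysis by replicate number was possible because each group has 1 library. All 82 called genes kept their direction wherever they were tested, except 1 of 75 among depth-matched granule-lineage cells. Between selected cells of YSG and SG females 5.16% of genes were above 2-fold after thinning, and between SG females and SG males 0.619% with 3 or more UMIs. Of the genes with values taken from the lists, Sfrp1, Tnc, Hspb1 and Wwtr1 changed the sign of the log2 fold change without YSG females. Over the libraries left out, their values ranged from -0.14 to 0.14, -0.42 to 1.06, -0.60 to 0.51 and -0.29 to 0.71. Cenpf turned to -0.97 after thinning, and the cause was not tested.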

Other observations

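Some genes set the YSG female cells with 0 UMIs of Hoxb2 and Hoxb3 apart from SG while the selected YSG female cells stood at the SG level. They were picked after their values were seen and carry no test. Igf2, a growth factor, stood at 26.9 CPM in selected YSG female cells and 4.16 CPM in the others, at 26.7 and 30.3 in SG males and at 27.0 and 44.6 in SG females. Sox2, a factor of neural progenitors, stood at 68.3 and 12.1 CPM in YSG females, 69.3 and 53.1 in SG males and 78.8 and 64.7 in SG females. Neurod1, a factor of granule neuron differentiation, stood at 215 and 420 CPM in YSG females, 205 and 154 in SG males and 193 and 143 in SG females. Unc5c, a netrin receptor, stood at 20.1 and 40.7 CPM in YSG females, 16.5 and 11.2 in SG males and 19.0 and 10.5 in SG females.

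Adcyap1, which encodes the neuropeptide PACAP, stood at 103 CPM in selected YSG female cells and 14.2 in the others, against 51.7 and 47.5 in SG males and 70.6 and 62.5 in SG females. Differentiating granule neuron-like cells made up 44.2% of YSG female cells with 0 UMIs and 28.2% of the selected ones, against 20.4% and 24.0% in SG males and 18.5% and 18.8% in SG females. The part of this difference in cluster makeup in the values above was not tested.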
